A study of Mus musculus with 80 samples.

Results

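Pou5f1 and Sox2 encode the paired transcription factors at the head of the pluripotency network, and Utf1, Zfp42 and Fgf4 are genes they are known to act on directly. The 5 genes were taken by name, and every deposited peak that overlapped the bounds of a gene extended by 10 kb on either side was assigned to it. They are 5 of the 21887 protein-coding genes placed on the mouse genome, and 220 peaks from 40 lists fell in their windows, 103 of them around Pou5f1, 46 around Sox2, 39 around Utf1, 20 around Fgf4 and 12 around Zfp42. The other 117 peaks do not share a limit of the Pou5f1 window, which is stated with its values.

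The peaks came from CUT&Tag, in which an antibody directs a transposase to cut and tag the DNA beside a histone mark. Per the labels, 80 libraries were made, with 5 marks at 8 stages of reprogramming and 2 libraries for each: embryonic fibroblasts (MEF, called D0), cells after 2, 4, 6, 8, 10 and 12 days in reprogramming medium (D2 to D12), and induced pluripotent stem cells (iPSC). All cells go back to MEFs of the strain 129XOG2, taken from E13.5 embryos and used at passages 1 to 3, so that every stage carries the OG2 transgene. The iPSCs grew on feeders whose kind the labels do not name, in an embryonic stem cell medium that held N2, B27, mLIF, CHIR99021 and PD0325901. What the reprogramming medium held is not stated there. Each mark and stage came as 1 deposited list. Values therefore carry no replicate error, no test between stages was possible, and a difference between stages is one between lists. Counts are therefore set beside the share of all genes counted in the same way, apart from some under other settings at the end.

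H3K4me3 lies at active and poised gene starts, H3K27ac at active starts and enhancers, and H3K18la is a lactate-derived mark found at active chromatin. H3K27me3 is laid down by the Polycomb repressive complex and H3K9me3 marks heterochromatin. In fibroblasts the genes for Pou5f1 and Sox2 are silent. In pluripotent cells the factors bind side by side at a joint Sox and octamer element, as in the enhancer at the end of Fgf4 and in that of Utf1. A gene start that carries H3K4me3 and H3K27me3 together is called bivalent.

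The labelled cell types were set against defining markers. Over all genes, 50.4% had an H3K27ac peak within 10 kb in iPSCs and 70.0% at D0. Of 6 fibroblast markers, 2 had one in iPSCs and 6 at D0; of 6 pluripotency markers, 6 had one in iPSCs and 3 at D0. The 2 fibroblast markers in iPSCs were Pdgfrb and Fn1, and the part of feeder cells in them was not tested. Markers of other cell types also had H3K27ac peaks: 3 of 4 for endoderm in iPSCs and 3 at D0, 1 of 4 for trophoblast in iPSCs and 3 at D0, 1 of 5 for epithelium in iPSCs and 2 at D0, 2 of 3 for blood in iPSCs and 2 at D0, 1 of 3 for endothelium in iPSCs and 3 at D0, and 0 of 4 for neural cells in iPSCs and 1 at D0. H3K4me3 peaks were at 6 of 6 fibroblast markers both at D0 and in iPSCs, where 69.6% and 75.0% of all genes had one. At these markers H3K4me3 thus did not set the cell types apart. Of the pluripotency markers, 3 of 6 had H3K4me3 at D0 and 6 in iPSCs, and 4 of 4 endoderm and 4 of 4 neural markers had it in iPSCs. The lists held 7009 to 37784 peaks. Depth, read as the most common background of a list, lay between 1.31 and 4.06 fragments per position, and a missing peak at this depth is a peak not called, not a mark shown to be absent.

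The start of each gene was placed with RefSeq promoter records (assembly GRCm38.p6, whose chromosomes are those of mm10). The 250 bases before each start are printed with every CG in capitals, because the share of CG differs widely among the 5 and CpG-rich starts are the usual place of bivalent marks. The stretches are chr17:35505782-35506031 (+) for Pou5f1, chr3:34649745-34649994 (+) for Sox2, chr7:139943606-139943855 (+) for Utf1, chr8:43307010-43307259 (-) for Zfp42 and chr7:144861136-144861385 (+) for Fgf4.
Pou5f1: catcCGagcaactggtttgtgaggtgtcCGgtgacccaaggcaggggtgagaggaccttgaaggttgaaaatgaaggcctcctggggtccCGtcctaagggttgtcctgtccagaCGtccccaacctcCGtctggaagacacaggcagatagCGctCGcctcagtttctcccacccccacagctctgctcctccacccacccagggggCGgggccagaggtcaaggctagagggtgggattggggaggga
Sox2: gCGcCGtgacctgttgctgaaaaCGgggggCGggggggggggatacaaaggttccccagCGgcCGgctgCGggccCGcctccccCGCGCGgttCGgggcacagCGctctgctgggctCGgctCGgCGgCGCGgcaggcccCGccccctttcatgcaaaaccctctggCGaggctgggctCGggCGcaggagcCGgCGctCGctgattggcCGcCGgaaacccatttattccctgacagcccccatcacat
Utf1: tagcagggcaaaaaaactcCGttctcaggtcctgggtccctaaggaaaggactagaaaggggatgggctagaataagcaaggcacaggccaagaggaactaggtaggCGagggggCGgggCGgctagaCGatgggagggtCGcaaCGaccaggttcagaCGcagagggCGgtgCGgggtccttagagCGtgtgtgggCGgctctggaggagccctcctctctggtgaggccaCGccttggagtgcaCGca
Zfp42: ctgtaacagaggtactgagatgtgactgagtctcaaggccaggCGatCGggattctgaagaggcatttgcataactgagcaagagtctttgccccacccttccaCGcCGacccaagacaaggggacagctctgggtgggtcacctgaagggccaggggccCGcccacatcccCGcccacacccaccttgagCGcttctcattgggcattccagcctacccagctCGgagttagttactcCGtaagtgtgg
Fgf4: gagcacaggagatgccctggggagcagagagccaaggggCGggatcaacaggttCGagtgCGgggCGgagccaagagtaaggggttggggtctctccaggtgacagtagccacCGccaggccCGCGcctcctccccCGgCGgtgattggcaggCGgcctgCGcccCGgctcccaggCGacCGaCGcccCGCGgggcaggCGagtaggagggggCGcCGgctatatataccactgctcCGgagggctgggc

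The Sox2 stretch held 27 CG and the Fgf4 stretch 21, against 14 for Utf1, 9 for Zfp42 and 8 for Pou5f1. Scaled by base composition, the observed over expected CG ratio was 0.83 for Sox2, 0.68 for Fgf4, 0.64 for Utf1, 0.42 for Zfp42 and 0.33 for Pou5f1, beside a median of 0.54 over 17492 promoters. Sox2, Fgf4 and Utf1 thus lay above the median, and Zfp42 and Pou5f1 below it. The octamer ATGCAAAT, searched on both strands, matched only Zfp42, at 186 to 179 bases before the start on the other strand, in the letters ATTTGCAT. It matched 1.62% of all promoters of this length. The letters ACAATG, the core of a Sox motif, matched none of the 5 on either strand and 9.57% of all promoters.

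H3K4me3 came to the 5 starts in 3 steps. Within 1 kb of the start it was called at 2 genes at D0 (Sox2 and Utf1), at 3 from D2 to D8 (with Fgf4) and at all 5 from D10 on (with Pou5f1 and Zfp42). Over all genes the share was 57.7% in the D0 list, then 59.7%, 59.5%, 59.1%, 59.8%, 60.6% and 59.2% in the lists of D2 to D12, and 59.5% in that of iPSCs. A peak in iPSCs that was not there at D0, as for Pou5f1, Zfp42 and Fgf4, was found at 4.21% of all genes, and a peak in both, as for Sox2 and Utf1, at 55.3%. Of the 737 genes that gained H3K4me3 at the start, 16.4% had it lastingly from D2, 8.55% from D10 and 56.0% first in iPSCs. With each H3K4me3 list cut to its strongest 18944 peaks, Fgf4 had it lastingly only in iPSCs. Its D12 peak, 22381st in its list, was cut, while those of D2 to D10 were kept.

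**Figure D1:**
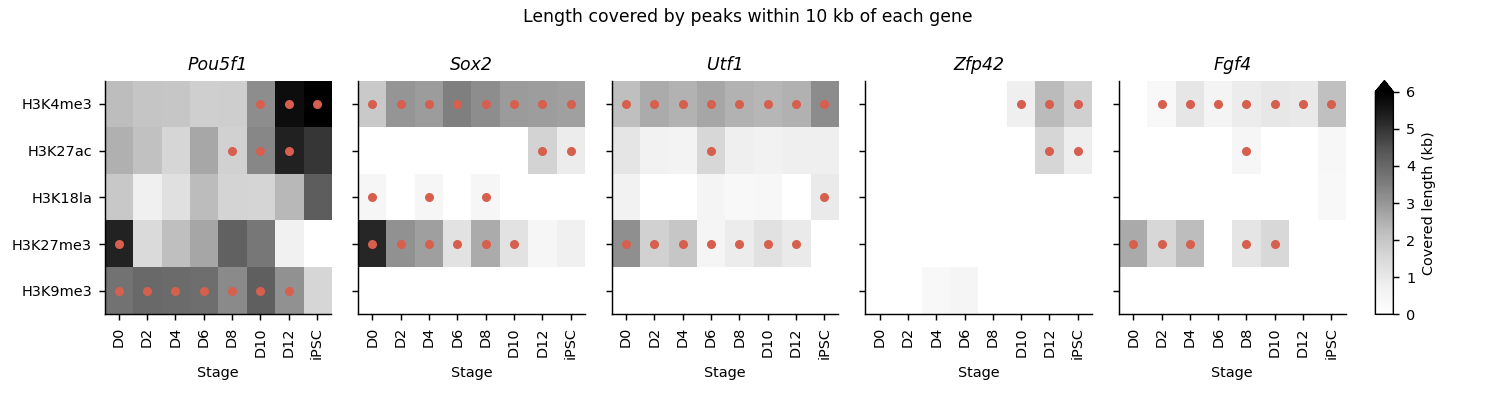
Length covered by peaks (grey scale, kb) within 10 kb of each gene, by mark (rows) and stage (columns, D0 to iPSC), for the 5 genes; red dots mark a peak within 1 kb of the gene start. H3K4me3 dots begin at D0 for Sox2 and Utf1, at D2 for Fgf4 and at D10 for Pou5f1 and Zfp42, and H3K27me3 dots are found at 4 of the 5 genes at D0 and at none in iPSCs.

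H3K27me3 moved the other way. Within 1 kb of the start, 4 genes had it at D0, then 3, 3, 2, 3, 3 and 1 in the lists of D2 to D12, and 0 in iPSCs. The share of all genes was 19.1% in the D0 list, then 12.3%, 15.5%, 8.46%, 11.2%, 14.4% and 9.08%, and 17.3% in iPSCs. Its last stage at the start was D0 for Pou5f1, D10 for Sox2 and Fgf4, and D12 for Utf1. Zfp42 had no H3K27me3 peak in its whole window at any stage. A start peak at D0 and none in iPSCs, as for Pou5f1, Sox2, Utf1 and Fgf4, was found at 7.82% of all genes. Of the 1368 such genes, 36.6% last had it at D0, 19.4% at D10 and 13.4% at D12.

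H3K27ac was called at fewer of the 5 starts than H3K4me3 in each of the 8 stages. Sox2 and Zfp42 had it within 1 kb of the start at D12 and in iPSCs, a gain between D0 and iPSCs seen at 1.78% of all genes. Of the 312 genes with that gain, 22.1% first had it lastingly at D12 and 48.4% in iPSCs. Pou5f1 had an H3K27ac start peak from D8 to D12, Utf1 at D6 alone and Fgf4 at D8 alone, none of which was called in iPSCs. These peaks were unlike in size. The Pou5f1 peak of D12 had 635 fragments at its summit, that of Utf1 21 and that of Fgf4 15, the last 2 in the lower part of their lists (72.6% and 92.8%). In iPSCs the H3K27ac peaks on either side of the Pou5f1 start had local backgrounds of 62.3 and 46.29 times the genome-wide one. The start peak of D12 was called at 64.11 times. With a background this high, the missing Pou5f1 call in iPSCs is not a mark shown to be lost. Starts with H3K27ac numbered 0 of the 5 up to D4, then 1, 2, 1 and 3 in the lists of D6 to D12, and 2 in iPSCs. The share of all genes was 53.1% in the D0 list, then 47.9%, 43.4%, 42.5%, 40.8%, 45.5% and 50.1%, and 29.3% in iPSCs, above that of the 5 up to D10 and in none of the lists of D12 and iPSC. H3K18la was called at the start of Sox2 at D0, D4 and D8 and of Utf1 in iPSCs, and of none of the other genes, where 54.3% of all genes had it at any stage.

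**Figure D2:**
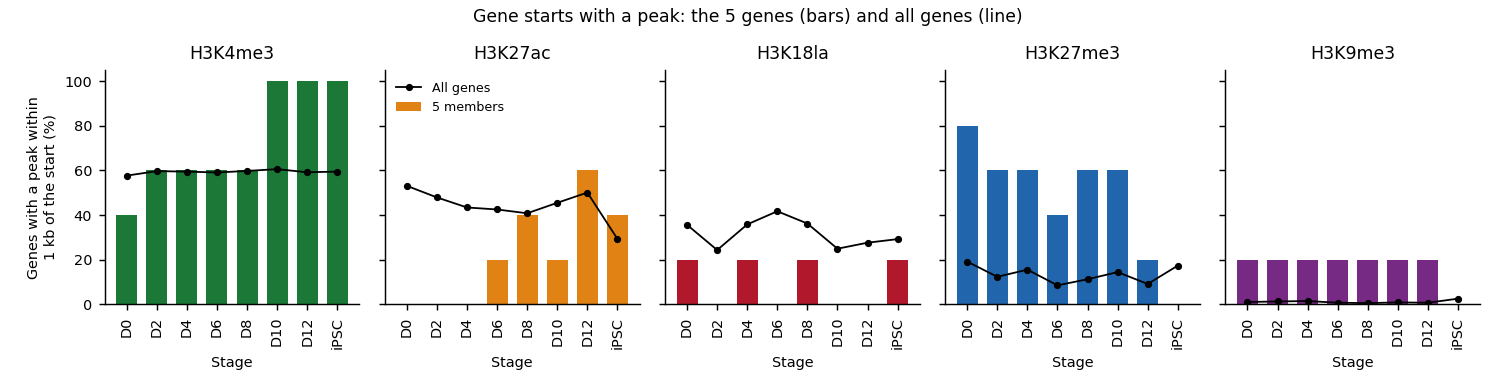
Share of the 5 genes (bars) and of 17492 genes with a known strand (line) with a peak within 1 kb of the start, in percent, by stage from D0 to iPSC, in 1 panel per mark. The H3K4me3 bars reach 100% from D10 on while the line stays between 57.7% and 60.6%, and the H3K27me3 bars end at 0 in iPSCs, where the line is at 17.3%.

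In the wider windows the order was less sharp. H3K4me3 was in 5 windows in iPSCs (75.0% of all genes) and in 3 at D0 (69.6%). H3K27ac was in 5 in iPSCs (50.4%) and in 2 at D0 (70.0%), and H3K18la in 3 in iPSCs (49.8%) and 3 at D0 (53.7%). H3K27me3 was in 1 window in iPSCs (37.3%), in 3 at D12 (28.0%) and in 4 at D0 (38.1%). H3K9me3 was in 1 window in iPSCs (18.1%) and 1 at D0 (20.1%), that of Pou5f1 in both. The windows also hold the ends of other genes, so the loci are described by where the peaks lay.

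Sox2 (gene 20674, chr3:34649995-34652461, + strand) lies within the long non-coding gene Sox2ot. Its start had H3K4me3 at all 8 stages, as 54.1% of all genes did. The peaks covered 1915 bp of the window at D0, 3013, 2878, 3487, 3177, 2884 and 2839 bp from D2 to D12, and 2796 bp in iPSCs. H3K27me3 covered 5212 bp at D0, 3097, 2817, 1187, 2581, 1215 and 445 bp from D2 to D12, and 747 bp in iPSCs. The H3K27me3 length was highest at D0 and lowest at D12, and at D8 it lay above its D6 value.

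At Sox2 the marks overlapped. Positions are given in kb from the start, negative upstream of it. At D0 the whole H3K4me3 peak, from -0.66 to 1.26 kb, lay within an H3K27me3 peak that ran from -1.22 to 1.32 kb. Within 2 kb of the start the shared length was 1915 bp at D0, 1327, 1502, 859, 1696 and 628 bp from D2 to D10, and 0 at D12 and in iPSCs. H3K27me3 peaks at D2, D4 and D8 were split: they ended at -0.07 to -0.06 kb and began again at 0.57 to 0.8 kb. The H3K27ac peaks of D12 and iPSCs were split at the same place: each list had a peak that ended at -0.06 kb and another that began at 0.58 kb (D12) or 0.75 kb (iPSC).

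Sox2 was the only one of the 5 genes with an H3K27me3 peak in its window in iPSCs, and that peak was not at the start. It lay at -7.92 to -7.17 kb, inside Sox2ot, at a stretch that had H3K27me3 in 8 of 8 lists and H3K4me3 in 7, from D2 on. In iPSCs the H3K27me3 peak there had a fold enrichment of 4.59, the authors' ratio of pileup over local background, and stood 2413th in its list, in the upper 15.3%. The H3K4me3 peak at the same stretch had a fold of 5.87. H3K27ac was called there at D12 alone, with 22 fragments at the summit. A peak in both iPSCs and D0 within 10 kb was found at 26.3% of all genes. Further downstream, 7.04 to 8.22 kb from the start, H3K27me3 was called at D0, D2 and D4 only.

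Utf1 (gene 22286, chr7:139943856-139945112, + strand), which encodes a chromatin-bound protein of undifferentiated cells, had H3K4me3 at its start at all 8 stages as well. In iPSCs that peak reached from -0.05 to 2.42 kb, past the end of the gene, with 143 fragments at its summit and a fold of 4.24, and it stood 4184th in its list, in the upper 11.8%. At D0 it ran from -0.02 to 0.68 kb, with 47 fragments and a fold of 6.01, and it ranked in the lower part of its list (13943 of 18944, 73.6%). The peaks of the stages in between ended 0.86 to 1.09 kb after the start. The iPSC peak was thus the longest of the 8.

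H3K27me3 lay on the same stretch of Utf1 from D0 to D12 and on none of its window in iPSCs. It covered 3127 bp at D0, 1695, 2014, 512, 871, 1240 and 915 bp from D2 to D12. The length shared with H3K4me3 was 698 bp at D0 and 1037, 629, 512, 641, 903 and 876 bp from D2 to D12, so Utf1 was the only one of the 5 with shared length near the start at D12. Both marks were found within 1 kb of the start at 13.9% of all genes in the D0 lists, then at 9.74%, 13.1%, 6.72%, 8.46%, 11.7% and 7.03% up to D12, and at 14.3% in iPSCs.

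**Figure D3:**
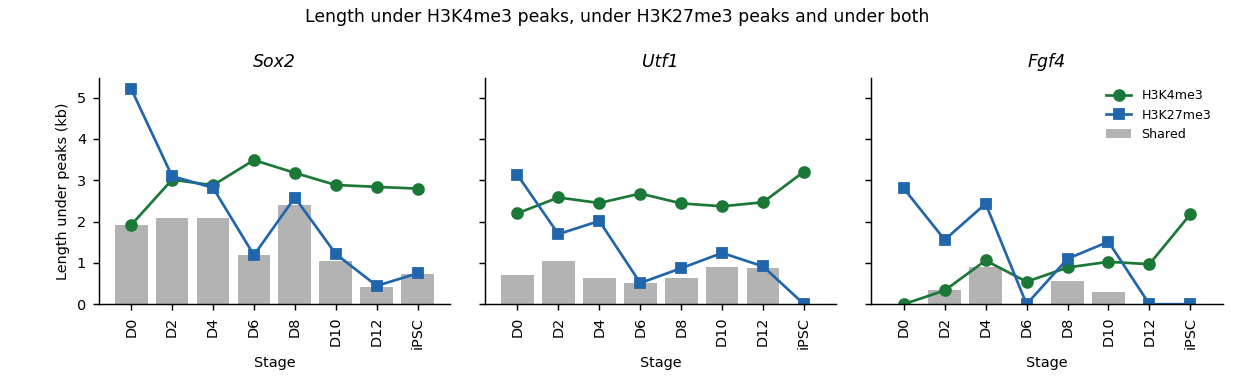
Length (kb) under H3K4me3 peaks (green circles), under H3K27me3 peaks (blue squares) and under both (grey bars) within 10 kb of Sox2, Utf1 and Fgf4, by stage from D0 to iPSC. Peaks that cross a window edge are drawn at full length. The Fgf4 H3K27me3 points are therefore at 2800 bp at D0 and 2432 bp at D4, of which 2615 and 2245 bp lie in the window. The Utf1 bar is above 0 up to D12 and at 0 in iPSCs; the Sox2 bars at D12 and in iPSCs come from the stretch upstream and not from the start.

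The active marks other than H3K4me3 in the Utf1 window sat for the most part at another gene. The start of the non-coding gene Gm16201, 6.14 kb downstream, carried H3K4me3 in 8 of 8 lists, H3K27ac in 7 (D0 to D12) and H3K18la in 5. The H3K4me3 peak there had 400 fragments at D2, beside 102 at the Utf1 start in the same list, and 79 in iPSCs, beside 143 at the Utf1 start. In iPSCs the only H3K27ac peak of the window was at 1.59 to 2.38 kb from the Utf1 start, beyond the gene end, on the side where the Utf1 enhancer is known to be. Its fold was 3.19, with 31 fragments at the summit, and it stood in the lower part of its list (15197th, 74.2%). H3K18la was called at the Utf1 start in iPSCs alone, with 24 fragments, and also at Gm16201.

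Fgf4 (gene 14175, chr7:144861386-144865245, + strand) encodes a growth factor made by pluripotent cells. It had no H3K4me3 peak at D0 and had one at the start in each list from D2 on. The covered length was 333, 1058, 543, 888, 1025 and 968 bp from D2 to D12, and 2175 bp in iPSCs. These early peaks were small: the pileup at the summit, in lists of D2 to D12, was 29, 39, 20, 25, 31 and 20 fragments, and they ranked in the lower part of their lists (72.8% to 87.8%). In iPSCs the start peak had 117 fragments at a fold of 3.2 and stood in the upper 34.8%.

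H3K27me3 at the Fgf4 start was called at D0, D2, D4, D8 and D10, covering 2615, 1558, 2245, 1099 and 1512 bp of the window, and at none of D6, D12 and iPSC. The D6 list was the one with the lowest share of all genes at the start, 8.46%. The D0 peak, from -1.76 to 0.67 kb, had 270 fragments and ranked in the upper 4.6%. H3K4me3 and H3K27me3 shared 333, 907, 552 and 291 bp at D2, D4, D8 and D10. H3K27ac in iPSCs was not at the start but at 3.17 to 3.57 kb, just before the end of the gene, where the Sox2 and Pou5f1 enhancer of Fgf4 is known to be, with 33 fragments and a fold of 3.19. An H3K4me3 peak with a fold of 1.94 and 64 fragments lay there too in iPSCs. The other Fgf4 peaks lay further out: H3K27me3 at D0 and D4 from 12.98 to 14.05 kb, H3K4me3 in iPSCs from 11.57 to 11.9 kb, and H3K18la in iPSCs at the upstream edge of the window. At D8, H3K27ac was called at the start with 15 fragments (95% Poisson interval 8.4 to 24.7, counting error only).

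Zfp42 (gene 22702, chr8:43295067-43307009, - strand), also called Rex1, encodes a zinc finger protein used as a marker of naive pluripotent cells. It had peaks in 7 of 40 lists, fewer than the median gene (22 lists), and 79.1% of genes had as many or more. No list from D0 to D8 had an active mark in its window. H3K4me3 was called at the start at D10, D12 and in iPSCs, with 34, 87 and 77 fragments at the strongest summit by the start and 771, 2287 and 1730 bp covered in the window. The D12 peak was a single run from -0.39 to 1.9 kb, and in iPSCs the same stretch held separate peaks. H3K27ac followed at D12 and in iPSCs, in peaks that began at -0.39 and -0.44 kb, with 45 and 39 fragments.

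Near the far end of Zfp42, 10.52 to 11.28 kb from the start, H3K27ac was called at D12 and in iPSCs, H3K4me3 in iPSCs and H3K9me3 at D6. The H3K9me3 peaks at D4 and D6 had the fewest fragments of the window, 18 and 16 (95% Poisson intervals 10.7 to 28.4 and 9.1 to 26.0), and neither was within 1 kb of the start. With each H3K9me3 list cut to its strongest 7591 peaks, neither was called. With equal list lengths the H3K27ac peaks of Zfp42 also began only in iPSCs. Zfp42 was thus the member with no repressive mark at its start in any list, as called here, and it also lacked H3K18la in its window at all stages.

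**Figure D4:**
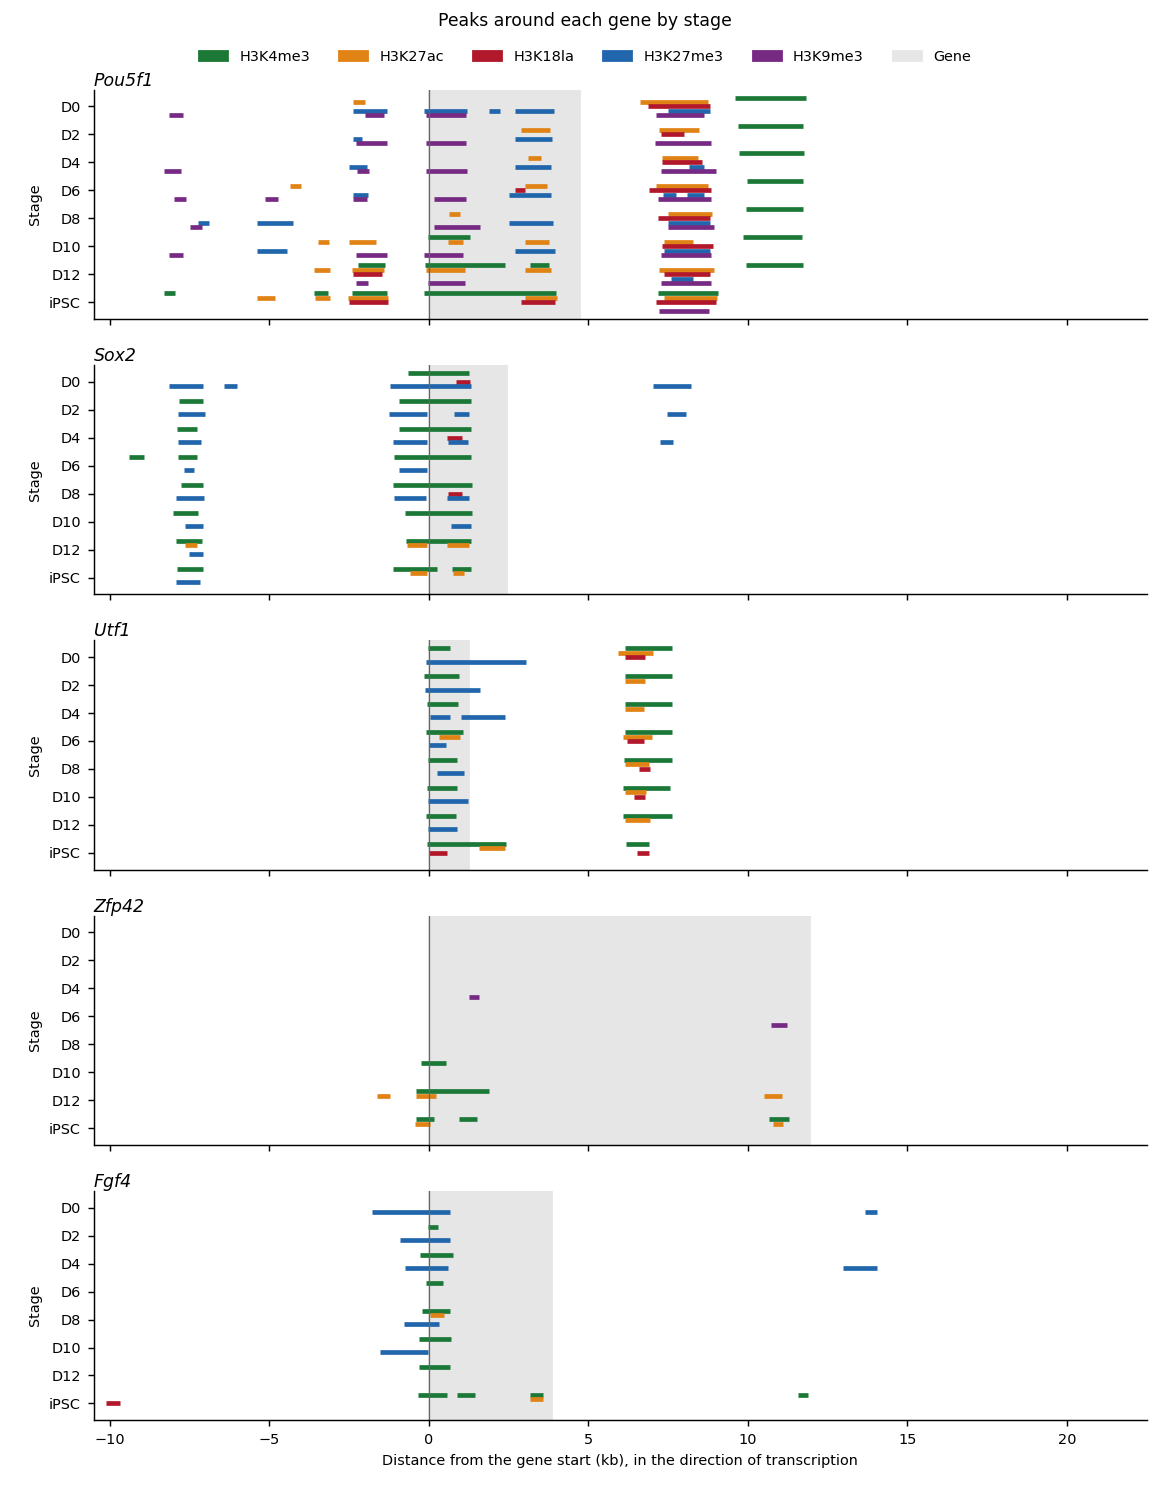
Peaks of 5 marks (colours) around the 5 genes, by distance from the gene start in kb (horizontal axis, in the direction of transcription) and stage (rows, D0 at the top to iPSC at the bottom); the gene body is shaded. The Pou5f1 window shows stacked marks at 6.62 to 9.06 kb at every stage, and the Zfp42 window shows active marks from D10 on.

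Pou5f1 (gene 18999, chr17:35506032-35510777, + strand) needs a limit stated before its values. The OG2 transgene is known to be a green fluorescent protein reporter driven by genomic Pou5f1 sequence that lacks the proximal enhancer, and its fragments map to the same place as those of the native gene. Copies of the transgene and the native gene cannot be told apart in these lists. The local background at Pou5f1 peaks was high: over the lists, its median was 15.72 times the genome-wide background of the same list, against 3.25 times at peaks in the flanking 1 Mb, and it was above the flank in 39 of 39 lists. For the other genes the medians were 3.33 (Sox2), 3.75 (Utf1), 1.95 (Zfp42) and 2.4 (Fgf4), against 1.88, 2.96, 1.28 and 2.81 in their flanks. In none of the 39 lists with a peak did one reach into the stretch from -1.2 to -0.2 kb, where the proximal enhancer is known to lie, though peaks were called on either side of it.

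**Figure D5:**
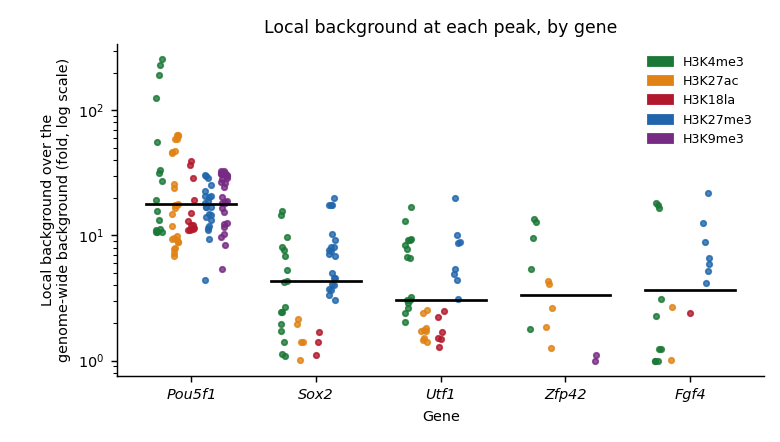
Local background at each of 220 peaks divided by the genome-wide background of its list (fold, log scale), by gene; colours give the mark and black lines the median over peaks. The Pou5f1 median is 18.01, against 4.3 for Sox2, 3.05 for Utf1, 3.36 for Zfp42 and 3.64 for Fgf4.

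At the Pou5f1 start, H3K27me3 was called at D0 alone, from -0.14 to 1.19 kb, and H3K9me3 at each stage from D0 to D12. The H3K9me3 summits had 292, 311, 370, 231, 191, 239 and 198 fragments from D0 to D12, and each ranked in the upper 4.0% of its list. Only 0.166% of all genes had H3K9me3 within 1 kb of the start in all 7 of these lists. No H3K9me3 peak was called at the start in iPSCs. H3K4me3 was called at the start at D10, D12 and in iPSCs, in peaks with a fold of 2.65, 3.63 and 2.46. The D10 and D12 summits were at 0.66 kb, with 95 and 356 fragments. The iPSC peak ran from -0.15 to 3.98 kb and had its summit, of 1236 fragments, at 3.55 kb.

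At D10 and D12 the start of Pou5f1 had H3K4me3, H3K27ac and H3K9me3 in overlapping peaks. At D12, 0.434% of all genes had all 3 marks within 1 kb of the start, whether or not the peaks overlapped. Summits coincided between marks: 9 of the 14 peaks at the start had their summit at 0.66 kb, and these came from 4 marks. At -2.2 kb lay the summits of 7 peaks of 4 marks. Whether the marks lie on the same molecules, on the native gene or on transgene copies was not tested.

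The stretch from -2.6 to -1.2 kb holds the distal enhancer of Pou5f1, which is known to act in naive pluripotent cells. H3K27ac was called there at D0, D10, D12 and in iPSCs, with folds of 2.87, 2.34, 2.7 and 3.34. The fragments at those summits were 61, 156, 609 and 749, and the local background was 6.92, 17.56, 63.27 and 62.3 times the genome-wide one. Fragments and local background were both higher at D12 and in iPSCs than at D0 and D10. H3K18la was called there at D12 and in iPSCs, with folds of 2.83 and 3.21, and H3K4me3 in the same 2 stages, with folds of 2.14 and 2.22. H3K27me3 was called there from D0 to D6 and H3K9me3 from D0 to D6 and at D10 and D12. In iPSCs neither repressive mark was called there and all 3 active marks were. In iPSCs the H3K27ac and H3K4me3 peaks there stood in the upper 0.3% of their lists.

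Within the gene, 2.5 to 4.1 kb from the start, H3K27me3 was called in each list from D0 to D10 and in neither D12 nor iPSC, while H3K27ac was called there at 6 stages and H3K4me3 at D12 and in iPSCs. H3K27me3 at this stretch ranked in the upper 16.3% of the list at D0 and in the upper 10.0%, 1.2%, 2.3%, 1.3% and 1.7% from D2 to D10. Counted over the gene bounds alone, H3K27me3 at Pou5f1 thus lasted to D10, against D0 at the start and D12 in the window. The single D12 peak lay 7.6 to 8.28 kb downstream.

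Part of the Pou5f1 window lies over its neighbours Tcf19 and Cchcr1. The H3K4me3 peaks of D0 to D8 lay only at 9.6 to 11.84 kb, where Tcf19 and Cchcr1 border on each other (bounds at 10.8 and 11.02 kb). That site had an H3K4me3 call in all 7 lists from D0 to D12 and no call in iPSCs. In the iPSC H3K4me3 list, the peak at 7.18 to 9.06 kb had its background at 124.64 times the level across the genome. For the border peaks of D0 to D12 this was 10.62 to 19.38 times. Background at the border in iPSCs is unknown, as no peak was called there. The missing call thus does not show that H3K4me3 was lost, which was not tested. Inside Tcf19, 6.5 to 9.1 kb from the Pou5f1 start, H3K27ac, H3K18la and H3K9me3 were each called in 8 of 8 lists and H3K27me3 in 6. Local background there was high as well, and all 96 peaks from -8.28 to 9.06 kb had a median of 18.1 times the genome-wide background. The median was 11.36 times for the 7 peaks at the border of Tcf19 and Cchcr1. The sets are unlike, since the 7 are all H3K4me3 peaks of D0 to D12 and the 96 come from 5 marks. Within the H3K4me3 list of D10 the start peak had 10.66 times and the border peak 10.75 times. At D12 they had 33.34 and 10.99 times. Over the whole window Pou5f1 had a peak in 39 of 40 lists, a number that 0.525% of genes reached, and within 1 kb of the start in 14.

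Counted without Pou5f1, at the starts of the other 4 genes, H3K4me3 was called at 2 of 4 at D0 and at 4 of 4 from D10 on. H3K27me3 was called at 0 of 4 in iPSCs and 3 of 4 at D0, and H3K27ac at 2 in iPSCs and 0 at D0. H3K9me3 was called at 0 in all 8 lists, where the share of all genes was also low, from 0.475% (D8) to 2.48% (iPSC). At Sox2 and Utf1 H3K4me3 was there from D0 and H3K27me3 ended later, at D10 and D12; at Fgf4 H3K4me3 came at D2 and H3K27me3 ended at D10. At Zfp42 there was no H3K27me3 to lose.

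CG content and H3K27me3 went side by side among the 5 to a degree. The 3 genes above the median CG ratio had H3K27me3 at the start in 5 to 7 lists, and the genes below it in 1 (Pou5f1) and 0 (Zfp42). Over all promoters the share with H3K27me3 at the start at D0 was 9.36% where the ratio was under 0.25, 23.3% from 0.25 to 0.5, 28.2% from 0.5 to 0.75 and 19.2% at 0.75 and over. The values of 5 genes are a description.

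The genes whose pattern over 40 lists was most like that of each member were named by the number of lists that matched. For Zfp42 they were Dppa2, an early embryonic chromatin factor, and Olfr165 (38 of 40 each) and Triml2 (37), where the median gene matched 20. Triml2 (chr8:43180463-43193884) lies near Zfp42 on the same chromosome, with a window that does not overlap that of Zfp42. Dppa2 had H3K4me3 and H3K27ac at D10, D12 and in iPSCs and H3K9me3 at D4. For Sox2 they were the developmental factors Foxd3, Pou3f2 and Hmx3 (37 each; median 23), for Fgf4 Prrg3 and Cnpy1 (37 each) and Slc30a2 (36; median 23), and for Utf1 H2-M5 (40), Ltbp4 and Rnf152 (39 each; median 28). For Pou5f1 they were Brox, Aida and Slc22a29 (40 each; median 23). Brox and Aida overlap on chromosome 1 and share peaks. The median local background over lists was 3.93, 4.12 and 2.01 times the genome-wide one at these genes (from 35, 34 and 36 lists with a solved peak), below the 15.72 of Pou5f1.

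Other genes of the pluripotency network, 20 in all, were counted in the same windows. H3K27me3 was in 3 of 20 windows in iPSCs (Esrrb, Lefty1 and Dppa3), where 37.3% of all genes had it, in 2 at D12 (Prdm14 and Spp1; 28.0%) and in 16 at D0 (38.1%). H3K4me3 was in 20 of 20 in iPSCs (75.0% of all genes) and in 14 at D0 (69.6%). H3K27ac was in 18 in iPSCs (50.4%) and in 11 at D0 (70.0%). A start could be placed for 10 of them. Of these, 7 had H3K27me3 at the start at D0 and not in iPSCs, where 7.82% of all genes did. H3K4me3 was at the start in iPSCs and not at D0 for 5 of the 10, where 4.21% of all genes had this gain. Nr0b1, a nuclear receptor, had it from D10 on, as Pou5f1 and Zfp42 did. The others differed: Tdgf1 and Spp1 had it from D8 on, Lin28a at D2, D4 and from D8 on, and Nanog in iPSCs only.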

How the data were processed

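Per the labels' protocols, CUT&Tag was done on MEFs, on cells every 2 days of reprogramming and on iPSCs. The tools of the authors were MACS2 2.1.2, Bowtie2 2.2.5, fastp 0.20.1 and deepTools 3.4.3, with mm10 as the build, per the submitters' processing notes. Use of a control and pooling of the 2 libraries of a group are not given in the sources used here. In 1 list, H3K18la at D2, the peaks are named for a library number, so only 1 library may lie behind it. The authors' deposited lists give each peak a fold enrichment (a ratio), a −log10 p-value and −log10 q-value, a score and a summit position. Titles gave each library its mark and stage. The authors' values served to order peaks inside their own list.

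Of 713652 peaks, the 710560 on the autosomes and sex chromosomes were kept. A peak belonged to a gene when it shared at least 1 bp with the gene bounds extended by 10 kb. Gene bounds came from the RefSeq table of GRCm38.p6 for 21887 protein-coding genes, and the strand from its promoter records for 17492. Percentages of all genes have these totals, windows with the first and starts with the second. The zone within 1 kb of the start and the stretches named within a window were drawn after the peaks had been seen. Stage order: an active mark counts as lasting from the first stage after which no later list lacks it. Fragments at a summit and local background were solved from the fold and p-value of a peak under the Poisson model of the caller, within 0.01 on the −log10 scale; this gave a value for 220 of 220 peaks here and for 96.2% to 99.94% of each list. It was checked on simulated peaks. Totals of reads are unknown, and depth is known only through that background, and intervals cover counting error only. The edges of the windows cut 3 peaks, all at Fgf4. The nearest peak outside was an H3K4me3 peak 887 bp beyond the Sox2 window at D10, with a fold of 4.82.

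The genes named are the 5 members, 20 other network genes, the neighbours in the windows and the 3 genes most alike by matching lists, ties going to the smallest summed difference in covered share; genes named only by a clone or a predicted-gene number were left out. The members and lists were chosen with earlier results of these data known. No test was possible with 1 list per group. Alternatives were a stricter part of each list, lists of equal length, other windows and a larger overlap. Python 3.11.15, numpy 2.4.6, pandas 2.3.3, scipy 1.17.1 and matplotlib 3.10.9 were used.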

Additional observations from a re-analysis of the deposited data

How the results depend on the processing

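No paired analysis was possible because each mark and stage has 1 deposited list and no columns for single libraries. Of 120 alternative values for the members with a peak in iPSCs, at D0 and their net change, 96 stayed within 1.5 times the value given. The net changes of H3K4me3, H3K27ac and H3K27me3 kept their sign in each setting. A count cannot change sign, and the net changes of H3K18la and H3K9me3 were 0 and had no sign to reverse. With gene bounds and no extension, members with a peak were 0 for H3K27me3 and 0 for H3K9me3 in iPSCs, 0 for H3K27ac and 1 for H3K18la at D0, and the net change was 1 for H3K18la and -1 for H3K9me3. With a 5 kb window H3K27me3 was at 0 members in iPSCs (32.2% of all genes) and the H3K18la net change was -1. With a 25 kb window H3K27me3 was at 2 members in iPSCs, H3K9me3 at 2 at D0, and the net changes were 1 for H3K4me3 and -1 for H3K9me3. In the stricter part of each list (−log10 q of at least 5), and with lists of equal length, the H3K18la net change was -1. Chosen after seeing the data: within 1 kb of the start, members in iPSCs were 2 for H3K27ac, 1 for H3K18la, 0 for H3K27me3 and 0 for H3K9me3, at D0 0 for H3K27ac and 1 for H3K18la, and the H3K9me3 net change was -1; without Pou5f1, H3K9me3 was at 0 members in iPSCs and 0 at D0, and H3K27ac at 1 at D0. Counting at least 50% of a peak inside the window changed none of these counts. The stage of gain or last call stayed the same in 144 of 175 cases, from 15 of 25 (within 1 kb of the start) to 25 of 25 (50% of the peak). The causes were not tested, beyond the smaller or larger window itself. Without the H3K18la list of D2, Pou5f1 had a peak in 38 of 39 lists, and the other genes had as many lists as before. The share of all genes in the 5 kb window stayed within 1.5 times that in the 10 kb window in 10 of 10 lists. It was not counted for gene bounds alone, the 25 kb window, the cut lists or the larger overlap. Member counts under those settings thus cannot be set against all genes.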
